A study of Homo sapiens with 4 samples.

Results

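The 37 genes described here are the core genes of DNA replication and of the passage from G1 into S phase. They were chosen by name for their roles in licensing, the replication fork, nucleotide synthesis and G1/S control, with earlier results of these data known. All 37 were found among the 60649 gene rows of the count table and passed the filter on low counts. FaDu, an established cell line of squamous carcinoma of the human pharynx, was grown in MEM alpha Glutamax with fetal bovine serum. The cells carried either an empty vector or a construct for overexpression of TINCR joined to HA and FLAG tags, with 2 RNA sequencing libraries in each group. The series calls the replicates technical, so every p-value here rests on a spread between libraries that may be technical only. The labels do not state the promoter of the construct or whether the cells are 1 clone.

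Replication begins when the origin recognition complex, with CDC6 and CDT1, loads the ring-shaped MCM helicase onto DNA during G1. The ring is switched on in S phase by CDC45, the GINS complex and MCM10, and polymerases then copy the strands with the sliding clamp PCNA. Cyclin-dependent kinases release E2F transcription factors from the retinoblastoma protein, and E2F proteins induce most of these genes. In squamous carcinomas the cyclin D, CDK4 and CDK6 step of this pathway is often deregulated.

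The groups could be checked on TINCR itself, whose counts were 68 and 64 under the empty vector against 1921 and 2943 under TINCR-HA-FLAG (log2 fold change 4.93, SE 0.17, adjusted p = 7.2e-07, edgeR). The 4 libraries held between 17069533 and 22331602 counts, of which mitochondrial genes took between 7.58% and 11.4%, with the highest share in TINCR-HA-FLAG replicate 1. The 7 epithelial markers KRT5, KRT14, KRT17, TP63, CDH1, EPCAM and DSP were present in every library. Their summed level of 7122 to 9466 CPM (counts scaled to library size) was lowest in TINCR-HA-FLAG replicate 1. Among them KRT14, a basal keratin, fell by 1.08 on the log2 scale (SE 0.15, adjusted p = 0.014, edgeR). The 6 fibroblast markers summed to 45.9 and 41.8 CPM against 50.6 and 50.9 CPM. That sum was mostly COL1A1, with 26.9 and 24.0 CPM against 33.6 and 33.6 CPM. DCN was also higher in both TINCR-HA-FLAG libraries, COL3A1 was lower in both, and COL1A2, PDGFRB and LUM overlapped. The 4 endothelial markers summed to 9.87 and 10.7 CPM against 13.8 and 12.6 CPM. That sum was mostly VWF, with 9.11 and 10.4 CPM against 13.2 and 12.3 CPM, while PECAM1, KDR and TEK stayed under 1 CPM. The 5 leukocyte markers summed to 8.23 and 8.91 CPM against 6.30 and 9.42 CPM. Of the fibroblast markers 4 of 6, of the endothelial 1 of 4 and of the leukocyte 1 of 5 reached 1 CPM in every library, no marker was at 0 in all of them, and the part of such RNA in the results was not tested. In bulk RNA, fewer cells in S phase and less RNA of these genes per cell cannot be told apart.

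No member of the replication and G1/S list passed the test between the groups in the fit by group alone. At an adjusted p under 0.05 in the edgeR quasi-likelihood test, 0 of the 37 were called, where 0.549% of the 18771 genes tested were (0.453% higher and 0.0959% lower). DESeq2 also called 0 members, where 1.08% of its genes were called. At an unadjusted p under 0.05, 3 members passed in edgeR, all of them lower with TINCR-HA-FLAG (RRM2, MCM6 and CDK6), which is 8.11% of the list beside 10.2% of all genes (4.31% lower and 5.88% higher). The log2 fold changes lay between -0.46 and 0.19, and 31 of the 37 were within 0.25 of zero. The standard errors ran from 0.0999 to 0.23 with a median of 0.12.

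The log2 fold change was negative in 30 members and positive in 7, with a median of -0.099. Over all genes tested 49.3% were negative and the median was 0.0042. Over the 10180 genes in the same range of mean level as the members, 53.3% were negative with a median of -0.016. Both TINCR-HA-FLAG libraries lay below both empty vector libraries for 15 members, or 40.5%, against 17.9% of all genes and 22.2% of genes of like level. Both lay above for 2 members, RRM1 and GINS1, against 21.7% of all genes. The other 20 overlapped.

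**Figure D1:**
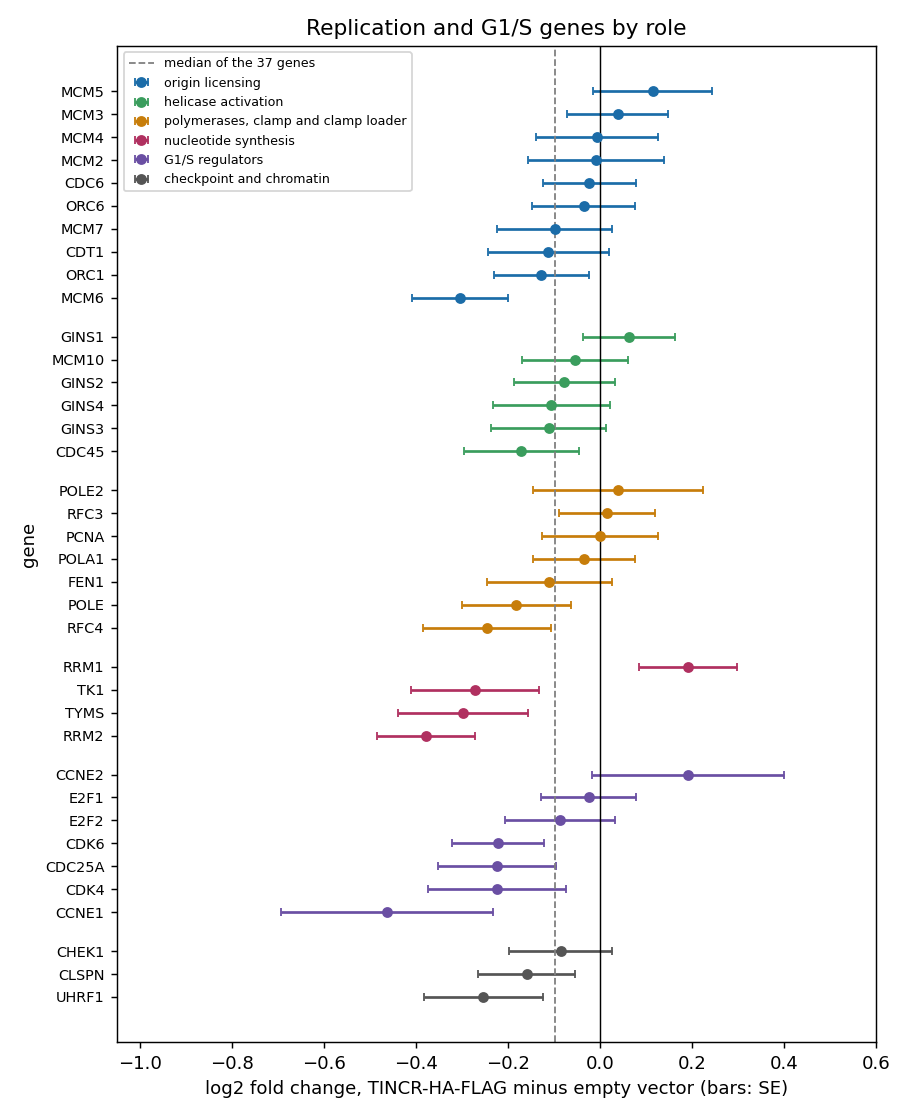
Log2 fold change of each of the 37 genes (x axis, TINCR-HA-FLAG minus empty vector) with its standard error, grouped and coloured by role on the y axis. The dashed line is the median of the 37 genes, -0.099, and 30 of the points lie below zero.

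The shift was larger in 1 library than in the other. Expressed against each gene's empty vector mean, the median member stood at -0.16 on the log2 scale in TINCR-HA-FLAG replicate 1 and at -0.028 in replicate 2. On another measure, the median log2 CPM over the members, the empty vector libraries stood at 6.36 and 6.32. The TINCR-HA-FLAG libraries stood at 6.26 and 6.37, so replicate 2 was not below the empty vector there. The SD of that median between replicates, pooled over the groups, was 0.059, and it does not measure the spread of the shifts. TINCR-HA-FLAG replicate 1 was the lowest of the 4 libraries for 23 of the 37 members, or 62.2%, against 26.6% of all genes tested and 36.1% of genes of like level. Without that library the median log2 fold change of the members was -0.023, and without TINCR-HA-FLAG replicate 2 it was -0.16. By role, the medians in replicate 2 were 0.034 for licensing, -0.027 for helicase activation, -0.10 for the polymerase group, -0.20 for nucleotide synthesis, -0.037 for the G1/S regulators and -0.099 for checkpoint and chromatin. Replicate 1 also had the highest mitochondrial share, 11.4%, and leaving the mitochondrial genes out of the counts gave a median of -0.11. The part of RNA quality in the shift was not tested. The difference between the groups exceeded the difference between replicates in both groups for 9 members, or 24.3%, beside 28.3% of all genes.

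**Figure D2:**
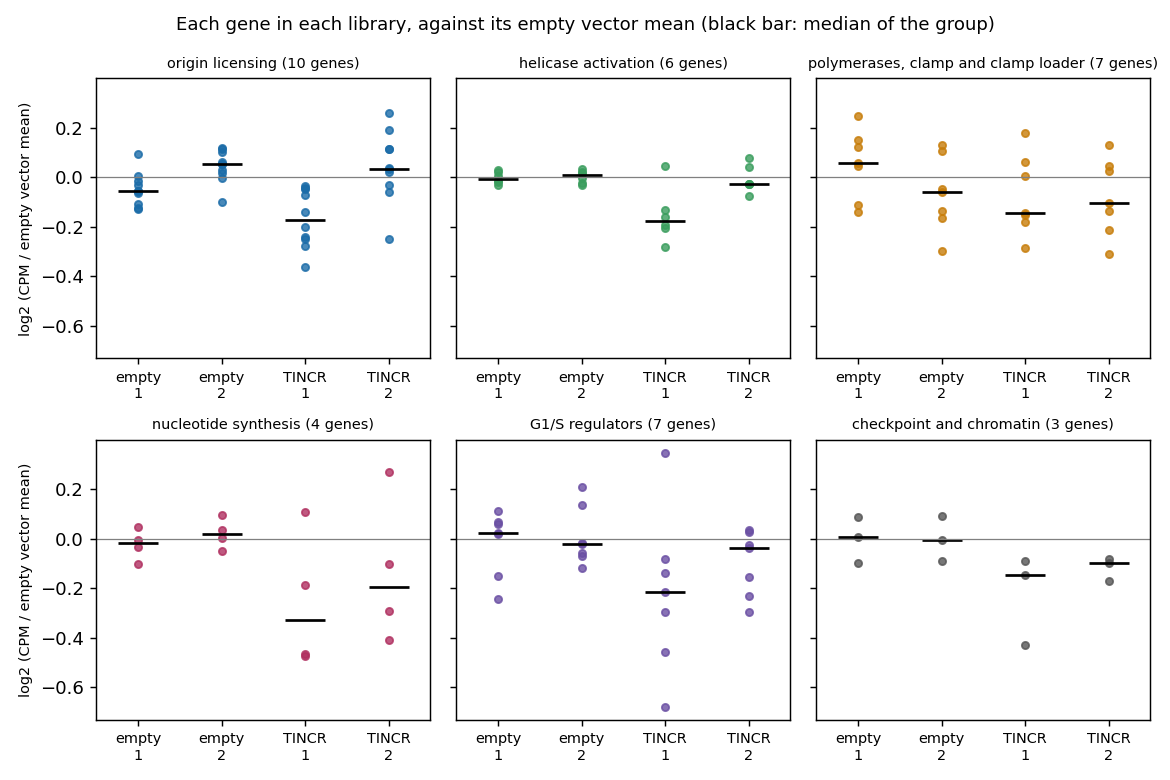
Each gene's level in each of the 4 libraries (x axis) as log2 of its CPM over its empty vector mean (y axis), in 1 panel per role. Black bars mark the median of the panel, which is lowest in TINCR-HA-FLAG replicate 1 in every panel, at -0.33 for nucleotide synthesis and between -0.14 and -0.21 for the other roles.

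The genes of nucleotide synthesis were the role with the lowest median, -0.28 over 4 members. RRM2, which encodes the small subunit of ribonucleotide reductase and whose transcript peaks in S phase, had 99.1 and 99.6 CPM with the empty vector and 71.6 and 81.2 CPM with TINCR-HA-FLAG. The groups did not overlap, and the empty vector libraries were nearly equal. For RRM2 the log2 fold change was -0.38 (SE 0.11), with the smallest p of the list and an adjusted p of 0.21 in edgeR and 0.26 in DESeq2. Of the RRM2 exon bases, 20.2% also belong to an unnamed gene on the same strand, with which reads could be shared.

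RRM1, the large catalytic subunit of the same enzyme, went the other way. Its levels were 141 and 148 CPM with the empty vector and 155 and 174 CPM with TINCR-HA-FLAG, again without overlap. The log2 fold change of RRM1 was 0.19 (SE 0.11, adjusted p = 0.61, edgeR). The ratio of RRM2 to RRM1 within a library does not depend on scaling between libraries. Per length of transcript it was 0.63 and 0.61 in the empty vector libraries against 0.41 and 0.42 in the TINCR-HA-FLAG libraries. These values did not overlap, and their log2 difference of -0.57 had p = 0.33 in a two-sided exact permutation test, the smallest p that 2 against 2 libraries can give, and an adjusted p of 0.67 over the 4 ratios examined. Leaving out each library in turn kept RRM2 between -0.48 and -0.29 and RRM1 between 0.101 and 0.28.

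TK1, the thymidine kinase of the salvage route, had 361 and 414 CPM with the empty vector and 280.4 and 361 CPM with TINCR-HA-FLAG. TINCR-HA-FLAG replicate 2 was level with empty vector replicate 1, so the groups overlapped narrowly. The log2 fold change of TK1 was -0.27 (SE 0.14, adjusted p = 0.57, edgeR), and it was -0.096 without TINCR-HA-FLAG replicate 1. TYMS, the thymidylate synthase gene, had 22.2 and 20.8 CPM against 18.9 and 16.2 CPM. Its groups did not overlap, and the log2 fold change was -0.30 (SE 0.14, adjusted p = 0.53, edgeR). Of the TYMS exon bases, 46.6% lie over ENOSF1 and TYMSOS on the opposite strand, so its level is uncertain if strand was ignored in counting.

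Origin licensing was close to level as a group, with a median of -0.030 over 10 members. MCM2 to MCM7 form 1 hexamer, and 5 of its 6 genes had groups that overlapped. MCM6 was the exception, with 149 and 160.3 CPM with the empty vector and 120.3 and 129.9 CPM with TINCR-HA-FLAG. For MCM6 the log2 fold change was -0.30 (SE 0.10, adjusted p = 0.34, edgeR), and it lay between -0.40 and -0.25 without each library in turn. MCM5 lay at the other end of the complex, with 167 and 193 CPM against 174 and 216 CPM and a log2 fold change of 0.11 (SE 0.13). MCM4 had 722 and 786 CPM against 684 and 817 CPM. In MCM4 the outer values both belonged to TINCR-HA-FLAG, so the replicates there differed more than the groups. MCM2 showed the same arrangement, with 186 and 221 CPM against 172 and 232 CPM. MCM3 had 306 and 312 CPM against 300.02 and 335 CPM. MCM7 had 360.001 and 388 CPM against 315 and 384 CPM. The log2 fold changes of MCM2, MCM3, MCM4 and MCM7 lay between -0.099 and 0.038. Of the MCM2 exon bases, 23.6% are shared with other genes on the opposite strand, and of those of MCM7, 8.94%.

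The levels of the 6 MCM genes can be compared only per length. In the empty vector libraries, in CPM per kb of the principal transcript, MCM4 stood at 180.3 ± 10.7 (SD, n = 2), MCM7 at 127 ± 6.77, MCM3 at 96.3 ± 1.43, MCM2 at 56.1 ± 6.78, MCM5 at 50.9 ± 5.16 and MCM6 at 41.4 ± 2.15. The values of MCM2 and MCM5 overlapped across the empty vector libraries. Within each of these MCM2 was the higher, at 51.3 against 47.3 and 60.9 against 54.6. With TINCR-HA-FLAG, MCM2 was lower in replicate 1 (47.5 against 49.3) and higher in replicate 2 (64.0 against 61.0). With TINCR-HA-FLAG, MCM6 stood at 33.5 ± 1.81 (SD, n = 2) and was again the lowest of the 6. The scale assumes the annotated principal transcript.

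The loaders varied less. ORC1, the largest origin recognition subunit, had 89.02 and 88.5 CPM with the empty vector and 77.1 and 85.2 CPM with TINCR-HA-FLAG, without overlap (log2 fold change -0.13, SE 0.10, and -0.21 without TINCR-HA-FLAG replicate 2 to -0.052 without TINCR-HA-FLAG replicate 1). CDC6, CDT1 and ORC6 overlapped between the groups, with log2 fold changes of -0.024, -0.11 and -0.035.

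**Figure D3:**
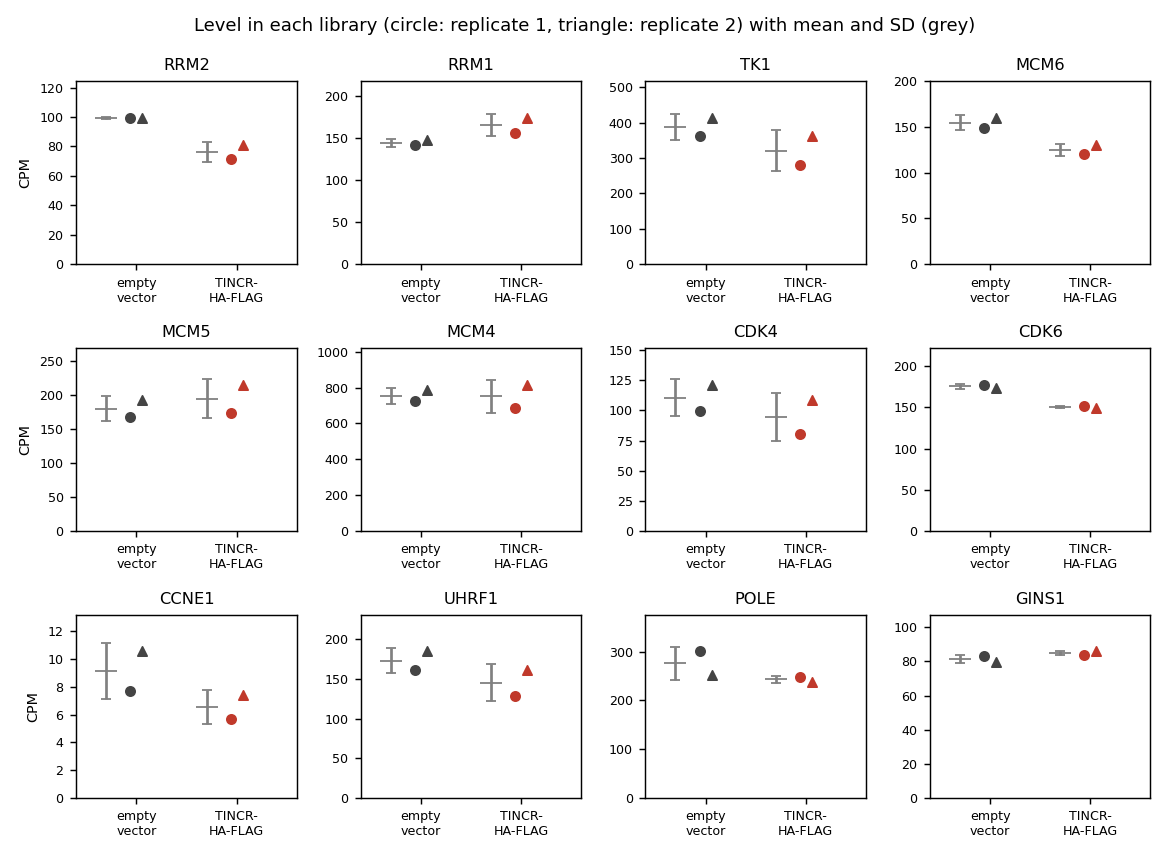
CPM of 12 of the genes in each library (y axis, from zero) by group (x axis), with circles for replicate 1, triangles for replicate 2 and the mean and SD of the 2 libraries in grey. With TINCR-HA-FLAG, RRM2, MCM6, CDK6, CCNE1, UHRF1 and POLE lie lower and RRM1 and GINS1 higher without overlap, while TK1, MCM4, MCM5 and CDK4 overlap. MCM4 and MCM5 show replicates further apart than the group means.

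The promoters of MCM6 and RRM2 are printed here because these genes had the smallest p-values of the list, and that of RRM1 because it differed from its partner RRM2 in direction. Each is the stretch of 250 bases before a transcription start in RefSeq (GRCh38.p14), 5′ to 3′ on the strand of the gene. Capitals mark E2F-type letters (TTTCCCGC, TTTCGCGC, TTTGCCGC or TTTGGCGC) and CCAAT boxes, on either strand. MCM6 lies at chr2:135876444-135876693 (minus strand), RRM2 at chr2:10122489-10122738 (plus strand, 1 of 2 starts listed) and RRM1 at chr11:4094435-4094684 (plus strand).
MCM6: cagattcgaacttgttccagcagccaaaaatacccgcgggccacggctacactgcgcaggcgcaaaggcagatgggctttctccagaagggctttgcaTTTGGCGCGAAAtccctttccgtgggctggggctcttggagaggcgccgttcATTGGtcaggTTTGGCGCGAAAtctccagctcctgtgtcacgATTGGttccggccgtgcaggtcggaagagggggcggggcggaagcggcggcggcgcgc
RRM2: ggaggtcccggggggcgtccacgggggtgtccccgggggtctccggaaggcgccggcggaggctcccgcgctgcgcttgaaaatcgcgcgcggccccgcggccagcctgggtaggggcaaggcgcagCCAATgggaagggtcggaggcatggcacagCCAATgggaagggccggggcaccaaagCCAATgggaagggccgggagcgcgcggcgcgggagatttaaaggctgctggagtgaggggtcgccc
RRM1: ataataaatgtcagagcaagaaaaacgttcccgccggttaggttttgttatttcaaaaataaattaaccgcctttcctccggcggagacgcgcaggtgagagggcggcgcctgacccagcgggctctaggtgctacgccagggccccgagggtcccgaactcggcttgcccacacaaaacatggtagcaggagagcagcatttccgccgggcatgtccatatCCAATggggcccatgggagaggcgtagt
MCM6 holds 2 E2F-type elements, each made of overlapping matches on both strands, and 2 CCAAT boxes. RRM2 holds 3 CCAAT boxes and RRM1 holds 1, with no E2F-type match in either stretch.

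Over the whole list, promoters of 33 members were matched, counting 250 bases before to 50 after each listed start. At least 1 E2F-type match was present in 20 of the 33 genes (60.6%), against 3.99% of all 27305 genes with a promoter in the table. A CCAAT box was present in 21 (63.6%), against 39.7% of all genes. The letters TTTGAA, the core of the element of mitotic genes known as CHR, were present in 1 (3.03%), RRM1, against 18.2% of all genes and 73.9% of the 23 genes matched from a list of mitotic genes. The median log2 fold change was -0.083 in the 20 members with an E2F-type match and -0.17 in the 13 without. A match is a description of the letters only.

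Members that activate the helicase had a median of -0.092 over 6 genes. CDC45, the partner that converts the MCM ring into an active helicase, had 30.1 and 30.8 CPM with the empty vector and 25.1 and 28.9 CPM with TINCR-HA-FLAG. Its groups did not overlap (log2 fold change -0.17, SE 0.13, and -0.29 without TINCR-HA-FLAG replicate 2 to -0.069 without TINCR-HA-FLAG replicate 1). GINS1 had 83.1 and 79.6 CPM against 84.0 and 85.9 CPM, so it lay slightly above, with a log2 fold change of 0.062 (SE 0.100). The other subunits of the 4-part GINS complex, GINS2, GINS3 and GINS4, were each lower in both TINCR-HA-FLAG libraries, with log2 fold changes of -0.078, -0.11 and -0.11. MCM10, a scaffold of the active helicase, overlapped between the groups (-0.055). The adjusted p of the 6 ranged from 0.73 to 0.93 in edgeR. Of the exon bases of GINS4 and GINS3, 23.6% and 10.9% are shared with other genes.

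Polymerases, the clamp and its loader had a median of -0.035 over 7 genes. POLE, the catalytic subunit of the leading strand polymerase, had 300.3 and 251 CPM with the empty vector and 248 and 238 CPM with TINCR-HA-FLAG. The lower empty vector library lay just above both, and the log2 fold change of POLE was -0.18 (SE 0.12, and -0.30 without empty vector replicate 2 to -0.089 without empty vector replicate 1). POLE2, the accessory subunit of the same polymerase, had 24.2 and 16.6 CPM against 23.02 and 19.0 CPM. Its replicates differed by 0.54 on the log2 scale within the empty vector group, far more than the groups (log2 fold change 0.039, SE 0.19). RFC4, a subunit of the clamp loader, had 32.8 and 26.4 CPM against 26.1 and 23.8 CPM (log2 fold change -0.25, SE 0.14, and -0.39 without empty vector replicate 2 to -0.12 without empty vector replicate 1), and RFC3 of the same loader had a log2 fold change of 0.014. PCNA itself had 144 and 168 CPM against 141 and 171 CPM and a log2 fold change of -0.00069 (SE 0.13). FEN1, the nuclease that trims Okazaki fragments, and POLA1, the catalytic subunit of the priming polymerase, overlapped between the groups (-0.11 and -0.035).

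The G1/S regulators had a median of -0.22 over 7 genes. CCNE1, which encodes cyclin E1, the partner of CDK2 at the start of S phase, had the lowest value of the list. It was expressed at 7.71 and 10.6 CPM with the empty vector and 5.70 and 7.44 CPM with TINCR-HA-FLAG. The groups did not overlap, but the replicates were far apart, and the log2 fold change of -0.46 had the widest standard error of the list (0.23, adjusted p = 0.55, edgeR). It ranged from -0.71 without empty vector replicate 1 to -0.22 without empty vector replicate 2. CCNE2, cyclin E2, had 7.88 and 6.72 CPM against 9.29 and 7.48 CPM and a log2 fold change of 0.19 (SE 0.21). Of its exon bases, 37.1% lie over INTS8 and an unnamed gene on the opposite strand. The ratio of CCNE1 to CCNE2 per length was 1.59 and 2.56 against 1.0009 and 1.62, which overlapped (two-sided exact permutation p = 0.67).

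CDK6, a kinase that works with D-type cyclins, had the tightest replicates of the regulators. It was measured at 178 and 173 CPM with the empty vector and at 151 and 149 CPM with TINCR-HA-FLAG. The log2 fold change of CDK6 was -0.22 (SE 0.100, adjusted p = 0.49, edgeR), and it lay between -0.25 and -0.22 without each library in turn. CDK4, the sister kinase, had 99.8 and 122 CPM against 80.6 and 109 CPM. The log2 fold change was the same to 2 decimals, -0.22, but the groups overlapped and the standard error was 0.15. Without TINCR-HA-FLAG replicate 1, CDK4 was at -0.022. TSPAN31 on the opposite strand covers 43.2% of the CDK4 exon bases. The ratio of CDK4 to CDK6 per length was 3.14 and 3.93 against 2.98 and 4.06, which overlapped (two-sided exact permutation p = 1).

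E2F1 and E2F2, the activator transcription factors of the S phase program, were close to level. E2F1 had 82.1 and 79.7 CPM against 76.4 and 82.5 CPM, and E2F2 had 34.9 and 31.7 CPM against 30.2 and 32.5 CPM. Both overlapped between the groups, with log2 fold changes of -0.025 (SE 0.10) and -0.087 (SE 0.12). The ratio of E2F1 to E2F2 per length was 4.88 and 5.21 against 5.25 and 5.27, without overlap (two-sided exact permutation p = 0.33, the smallest possible). CDC25A, the phosphatase that activates CDK2, had 27.5 and 25.4 CPM against 21.5 and 23.7 CPM, without overlap (-0.22, SE 0.13).

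The remaining members serve the S phase checkpoint and chromatin, and all 3 had negative values. UHRF1, which brings maintenance DNA methylation to newly copied DNA, had 162 and 185 CPM with the empty vector and 129 and 162 CPM with TINCR-HA-FLAG. The nearest libraries of the groups were almost equal, and the log2 fold change of UHRF1 was -0.25 (SE 0.13), or -0.094 without TINCR-HA-FLAG replicate 1. CLSPN, the adaptor that lets ATR activate CHK1, had 46.4 and 46.1 CPM against 41.7 and 41.02 CPM. Its replicates were close and its groups apart, with a log2 fold change of -0.16 (SE 0.11). CHEK1, the gene of the kinase itself, had 53.5 and 47.4 CPM against 47.4 and 47.6 CPM and a log2 fold change of -0.086 (SE 0.11).

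Per length, the most abundant members in the empty vector libraries were TK1 at 238 ± 23.1 CPM per kb (SD, n = 2), MCM4, MCM7 and PCNA, the last at 115 ± 12.3. The lowest were CCNE1 at 4.47 ± 0.99 and CCNE2 at 2.19 ± 0.25 CPM per kb (SD, n = 2). The libraries of MCM7 and PCNA, neighbours in this order, overlapped, but within each library MCM7 was the higher.

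**Figure D4:**
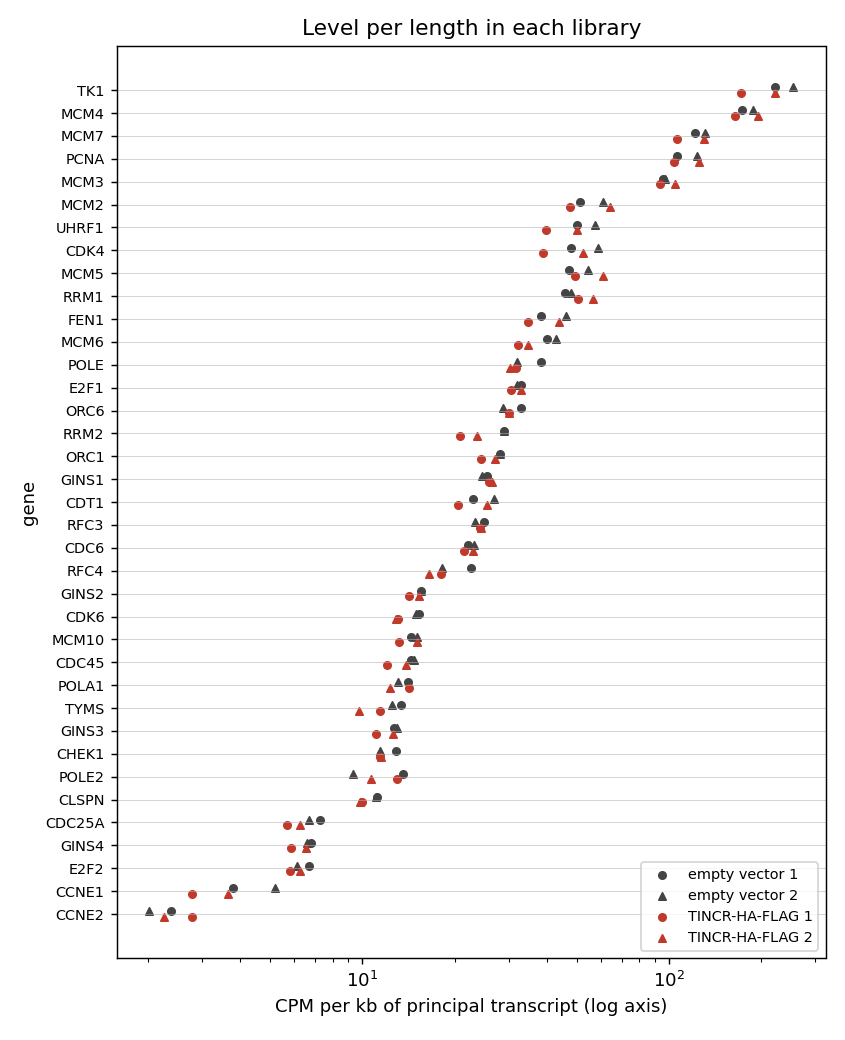
Level of each of the 37 genes (y axis, ordered by empty vector mean) in CPM per kb of principal transcript on a log axis, with grey points for the empty vector libraries and red points for TINCR-HA-FLAG. The order runs from TK1 at 238 to CCNE2 at 2.19 CPM per kb in the empty vector libraries, and the groups lie close together for most genes.

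The wider pathway was read from a further list of 85 replication and G1/S genes, of which 84 were tested. None was called by edgeR, beside 0.549% of all genes. At an unadjusted p under 0.05, 12 passed (14.3%, 6 in each direction), beside 10.2% of all genes (4.31% lower and 5.88% higher). Among the 10180 genes in the range of mean level of the 37 members, 13.0% passed. DESeq2 called 1 (1.19%), TICRR, beside 1.08% of its genes. The median of the wider list was -0.047, and 53 (63.1%) were negative, beside 49.3% of all genes and 53.3% of those 10180 genes. The list of 28 mitotic genes had a median of -0.019, with 15 negative (53.6%) and no call. An unadjusted p under 0.05 was found for 2 of them (7.14%). MKI67, the common proliferation marker, had 733 and 658 CPM with the empty vector and 784 and 646 CPM with TINCR-HA-FLAG.

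Among the wider genes, the strongest differences toward higher values were in TFDP2 and TICRR. TFDP2, a dimer partner of E2F proteins, had 56.0 and 55.5 CPM against 78.4 and 77.6 CPM, with replicates almost equal and groups well apart. Its log2 fold change was 0.48 (SE 0.10), with an adjusted p of 0.079 in edgeR and 0.103 in DESeq2. TICRR, which helps load CDC45 onto the helicase, lies on chromosome 15 (89575482 to 89631056), where its neighbours were not examined. It had 174 and 158 CPM against 244 and 218 CPM. The log2 fold change of TICRR was 0.48 (SE 0.11, adjusted p = 0.12, edgeR), and DESeq2 gave an adjusted p of 0.048. With 1 library left out, where the spread comes only from the group that keeps 2 libraries, the adjusted p in edgeR ranged from 0.045 to 0.38 for TFDP2 and from 0.020 to 0.59 for TICRR, both lowest without TINCR-HA-FLAG replicate 2.

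Toward lower values the strongest were DTYMK and CTPS1, both of nucleotide synthesis. The 7 wider genes of that role had a median log2 fold change of -0.013. At an unadjusted edgeR p under 0.05, 2 of them were lower and 2 higher (57.1% together, beside 10.2% of all genes tested). DTYMK, thymidylate kinase, lies on chromosome 2 (241675742 to 241686991), where its neighbours were likewise not examined. It had 59.4 and 62.5 CPM with the empty vector and 40.2 and 47.6 CPM with TINCR-HA-FLAG (log2 fold change -0.47, SE 0.12, adjusted p = 0.15, edgeR). With 1 library left out, with the spread taken in the same way, its adjusted p in edgeR ranged from 0.0092 without TINCR-HA-FLAG replicate 2 to 0.41 without empty vector replicate 2. CTPS1, a CTP synthase, had 175 and 157 CPM against 133 and 127 CPM (-0.35, SE 0.11, adjusted p = 0.25, edgeR). CCND1, cyclin D1, which activates CDK4 and CDK6, had 1174 and 1271 CPM against 1054 and 1107 CPM (-0.18, SE 0.13, adjusted p = 0.72, edgeR).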

How the data were processed

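RNA for 4 FaDu libraries, 2 per group, was prepared with an NEBNext Ultra library kit, per the labels. The authors deposited raw whole-number counts per gene. Per the submitters' processing notes, the tools included STAR 2.7.9a, bcl2fastq 2.20.0.422 and DESeq2 1.32.0, with build GRCh38. The sources used here do not give the counting step, strand handling or annotation. A further 12 library columns of the table fit no labelled sample and were left aside. Ensembl identifiers gave symbols for 60463 rows. GENCODE 29 gave lengths and exon overlaps.

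Counts were TMM-scaled, filtered with filterByExpr (18771 genes left) and tested with edgeR 4.0.16 (robust quasi-likelihood) in R 4.3.3, with Benjamini-Hochberg adjustment over all genes and a threshold of 0.05. Standard errors follow from the log2 fold change and its F statistic. CPM per kb divides by the longest transcript of the best principal rank. The edgeR and DESeq2 1.42.0 scripts were tested on simulated data.

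Members and lists were chosen with earlier results of these data known. The naming rule took called members, each role's lowest, highest and most abundant gene, MCM2 to MCM7 and 4 pairs, and in the wider list the 2 smallest p-values in each direction and CCND1. TYMS, ORC1, CDC25A, CLSPN, MKI67 and the choice of promoters were added after values were seen. Alternatives were DESeq2, RLE or total-count scaling, 2 other filters, omission of mitochondrial genes, another dispersion estimate, a replicate block and each library left out.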

Additional observations from a re-analysis of the deposited data

How the results depend on the processing

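No member was called with DESeq2, with RLE or total-count scaling, with other filters, without mitochondrial genes, with the legacy dispersion or with any 1 library left out. The median of the members stayed negative in all 12 alternatives, between -0.12 and -0.081 with all libraries and between -0.16 and -0.023 with 1 left out. Members lower in both TINCR-HA-FLAG libraries numbered 12 to 16 with all libraries and 14 to 29 with 1 left out (24, or 64.9%, without empty vector replicate 1 and 29, or 78.4%, without TINCR-HA-FLAG replicate 2). With 2 against 1 libraries non-overlap is more frequent. The share of all genes tested was 35.9% and 33.4% in those fits against 17.9% with all libraries. Without TINCR-HA-FLAG replicate 1 the 14 members were 37.8% of the list, close to the 33.2% of all genes. Without empty vector replicate 2 the share was 51.4%, beside 33.4% of all genes. With all libraries, the 12 members with no filter were 32.4%, beside 14.2% of all genes. The 16 with RLE scaling were 43.2%, beside 19.6%. The number called in the wider list was 1 with DESeq2 (1.19%, beside 1.08% of its genes) and 0 to 3 with 1 library left out. The 3 (3.53%) came without TINCR-HA-FLAG replicate 2, where 1.90% of all genes were called. In that fit the spread comes only from the empty vector libraries. Each other fit with 1 library left out called 0 of the wider list. Over all genes, 103 were called, against 53 (47 higher and 6 lower) with no filter, where more genes are tested, and 124 to 386 (69 to 226 higher, 45 to 160 lower) with 1 library left out, with 172 without empty vector replicate 2, 232 without TINCR-HA-FLAG replicate 1 and 386 without TINCR-HA-FLAG replicate 2. The number lower was 44 with DESeq2 against 18. The cause of these differences was not tested.

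The titles give both groups replicate numbers 1 and 2, and nothing in the labels says that a number marks a shared day or batch. The deviations of same-numbered libraries from their group means correlated at 0.37 across genes. With the replicate number as a block, 2633 genes were called (14.03% of those tested, 1317 higher and 1316 lower). In that fit 9 members (24.3%) were called, of which RRM2, MCM6, TK1, UHRF1, CDK6, CDK4, POLE and CCNE1 were lower and RRM1 was higher, with 16 genes (19.0%) of the wider list.

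The sign of 15 members changed in some alternative, and 22 kept it in all. With RLE scaling and with DESeq2 RFC3 turned to -0.0044 and -0.0078. With total-count scaling MCM2, MCM4 and PCNA turned to 0.0093, 0.012 and 0.018, and PCNA was at 0.0028 with no filter and 0.0015 with a minimum of 1 CPM. With 1 library left out, the ranges were -0.25 to 0.19 for MCM2, -0.049 to 0.12 for MCM3, -0.15 to 0.12 for MCM4, -0.054 to 0.27 for MCM5, -0.26 to 0.042 for MCM7, -0.094 to 0.028 for CDC6, -0.28 to 0.038 for CDT1, -0.12 to 0.023 for ORC6 and -0.16 to 0.045 for MCM10. They were -0.13 to 0.056 for POLA1, -0.20 to 0.30 for POLE2, -0.15 to 0.13 for PCNA, -0.028 to 0.030 for RFC3, -0.29 to 0.049 for FEN1 and -0.088 to 0.034 for E2F1.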

Other observations

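Several regulators outside the 37 genes had an unadjusted edgeR p under 0.05 without passing the adjusted test, and were chosen here after their values were seen. The wider list had 6 genes in each direction at that threshold, and not all of the lower ones are named in this text. Its 25 G1/S regulators had a median log2 fold change of -0.0091. RBL2, which encodes the pocket protein p130, had 95.9 and 97.3 CPM with the empty vector and 116 and 117 CPM with TINCR-HA-FLAG (log2 fold change 0.27, SE 0.099, adjusted p = 0.37). CDKN2B, the gene of the CDK4 and CDK6 inhibitor p15, had 10.5 and 12.2 CPM against 15.3 and 15.2 CPM (0.42, SE 0.16, adjusted p = 0.39). TFDP1 had 334 and 367 CPM against 276 and 307 CPM (-0.27, SE 0.11, adjusted p = 0.46), opposite in sign to its paralog TFDP2.

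In nucleotide supply, RRM2B, the small reductase subunit that is not tied to S phase, had 69.6 and 76.0 CPM against 87.3 and 89.1 CPM (0.28, SE 0.10, adjusted p = 0.38), opposite in sign to RRM2. SAMHD1, a deoxynucleotide triphosphohydrolase, had 63.5 and 69.5 CPM against 85.9 and 89.0 CPM (0.39, SE 0.10, adjusted p = 0.17). In all 5 genes the groups did not overlap, which a choice by small p favours. Over all genes tested, 21.7% lay higher and 17.9% lower without overlap. RNASEH2A was the 1 gene of the wider list that failed the filter on low counts, with 17, 3, 8 and 7 counts, although the other RNase H2 subunits RNASEH2B and RNASEH2C passed it.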
